A study of Mus musculus with 6 samples.

Results

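The 10 Frizzled genes, Fzd1 to Fzd10, encode the cell surface receptors of Wnt proteins, and each was found as 1 row of a gene table of 36699 rows by its gene symbol. The table compares mouse A2Lox.cre embryonic stem (ES) cells, a line with a doxycycline-responsive site for an inducible transgene, in 2 groups of 3 libraries on day 3 of embryoid body culture. The plus Dox group (replicates 1, 3 and 4) received doxycycline from day 2, for 24 hours, which switches on Flag-Sp5, an epitope-tagged copy of a zinc-finger transcription factor. The minus Dox group (replicates 2, 3 and 4) came from Flag-Sp5 cells of the same line without doxycycline. The colonies of both groups had been grown on primary mouse embryonic fibroblasts, which were removed before the suspension culture. A doxycycline group lacking the transgene was not analysed here, so effects of the drug and of Flag-Sp5 cannot be told apart. It is not stated whether replicates were separate cultures, so p-values may measure technical spread alone, or whether the line was 1 clone. The deposited table gives each group 1 value from its 3 libraries, in FPKM (fragments mapped per length of transcript and per size of library), so no value per library, SD or n can be given.

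Frizzled proteins cross the membrane several times and bind Wnt ligands through a cysteine-rich domain outside the cell. With the co-receptors Lrp5 or Lrp6 they pass the signal to Dishevelled (Dvl) proteins, which leads to stabilised beta-catenin and transcription through Tcf and Lef factors. Other branches, with Ror, Ryk or Vangl proteins, act on cell polarity and movement, and in the gastrulating mouse embryo Wnt signalling through these receptors is needed to form the primitive streak and mesoderm. Sp5 is itself a known target of the beta-catenin branch.

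The family falls into subfamilies by sequence. Over the coding sequences of GENCODE transcripts (build GRCm38), the 6 pairs of genes within the subfamilies Fzd1, Fzd2 and Fzd7, then Fzd5 and Fzd8, then Fzd9 and Fzd10, then Fzd3 and Fzd6, shared 58.0% to 79.2% of the bases of the shorter sequence, with a median of 74.7%. The other 39 pairs shared 43.6% to 62.6%, with a median of 55.6%. Fzd4 stood nearest to Fzd9, at 60.3%, and to Fzd10, at 60.1%. The transcripts of Fzd1, Fzd2, Fzd7, Fzd8, Fzd9 and Fzd10 had 1 exon, that of Fzd5 had its coding sequence in 1 of 2 exons, and those of Fzd3 and Fzd6 had coding sequence in 6 exons. In every member the coding sequence held, once and in frame, the KTXXXW motif that follows the last membrane span and is known to bind Dvl. Its 30-base surroundings are shown for 3 subfamily pairs, to show what the receptors share and where the pairs part, with the codons of the K, T and W in capitals (5′ to 3′, GRCm38).
Fzd10: acttccAAGACCctgcagtccTGGcaacac
Fzd9: agttccAAGACTtttcagactTGGcagagc
Fzd7: tcgggcAAGACCctgcagtcaTGGcgtcgc
Fzd2: tccggcAAGACActgcactcgTGGaggaag
Fzd3: agcaaaAAGACAtgctttgaaTGGgccagt
Fzd6: agcaaaAAGACGtgcacagaaTGGgccggg
The motif ended near the end of the coding sequence in the subfamily of Fzd1, Fzd2 and Fzd7, where its first codon was 23 codons from the end, and lay 165 and 212 codons from the end in Fzd3 and Fzd6.

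**Figure D1:**
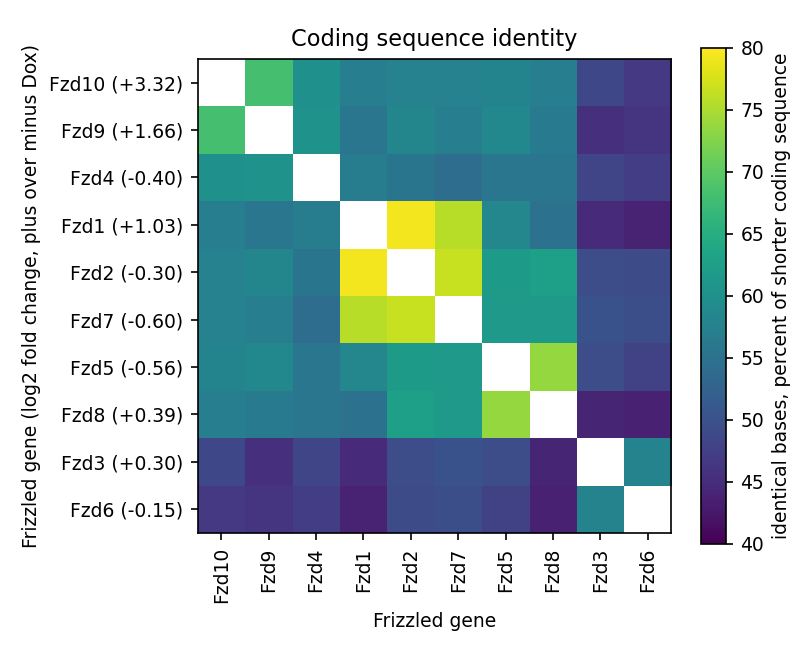
Percent of identical bases between the coding sequences of each pair of Frizzled genes, relative to the shorter sequence (colour), with the log2 fold change of plus Dox over minus Dox in parentheses after each row's gene. The brightest squares lie within subfamilies, led by Fzd1 and Fzd2 at 79.2%, and members of 1 subfamily can carry fold changes of opposite sign, such as Fzd5 and Fzd8.

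All 10 members had status OK and were tested. A gene is called here when it has status OK and q under 0.05 in the authors' deposited table, and "rose" and "fell" are used only of such genes. In the authors' deposited table, 8 of the 10 were called, of which 4 rose with Flag-Sp5 induction and 4 fell, against 23.2% of all 18537 tested genes, with 10.5% higher and 12.7% lower. Among the 12326 tested genes with at least 1 FPKM in the higher group, which hold all members, 29.4% were called after a new adjustment, and again 8 members. Fzd10, Fzd9 and Fzd1 entered this set only through their plus Dox level, and Fzd4 only through its minus Dox level. The unchanged count is therefore not independent of the changes. Fzd10, Fzd9, Fzd1 and Fzd8 rose, Fzd7, Fzd5, Fzd4 and Fzd2 fell, and Fzd3 and Fzd6 were not called. The rises were larger in ratio. In the authors' deposited table, 3 of the 10 rose at least 2-fold, against 3.53% of tested genes, and none fell as much, against 2.22%. These folds carry no pseudocount. With 1 FPKM added to both groups the log2 fold change was 2.43 for Fzd10, 0.90 for Fzd9 and 0.46 for Fzd1, beside -0.58 for Fzd7, so that Fzd10 alone stayed past 2-fold and the size of Fzd1's change was below that of Fzd7. The median of the members' log2 fold changes was 0.07, beside -0.03 over all tested genes with both groups above 0. Without regard to sign the members' median change was 0.48 on the log2 scale, beside 0.22 over the same genes. In bulk RNA, more or fewer cells with a transcript and more or less of it per cell cannot be told apart.

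The error of each change can be read from the authors' test. In all 18284 tested rows with both groups above 0, the deposited p-value was the two-sided normal p of the deposited statistic, so that dividing the log2 fold change by the statistic gives, without sign, the standard error (SE) that the authors' test used. For the members this SE was 0.07 to 0.16 on the log2 scale. Intervals of 95% below are made from it and hold what that test took as the spread between libraries.

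**Figure D2:**
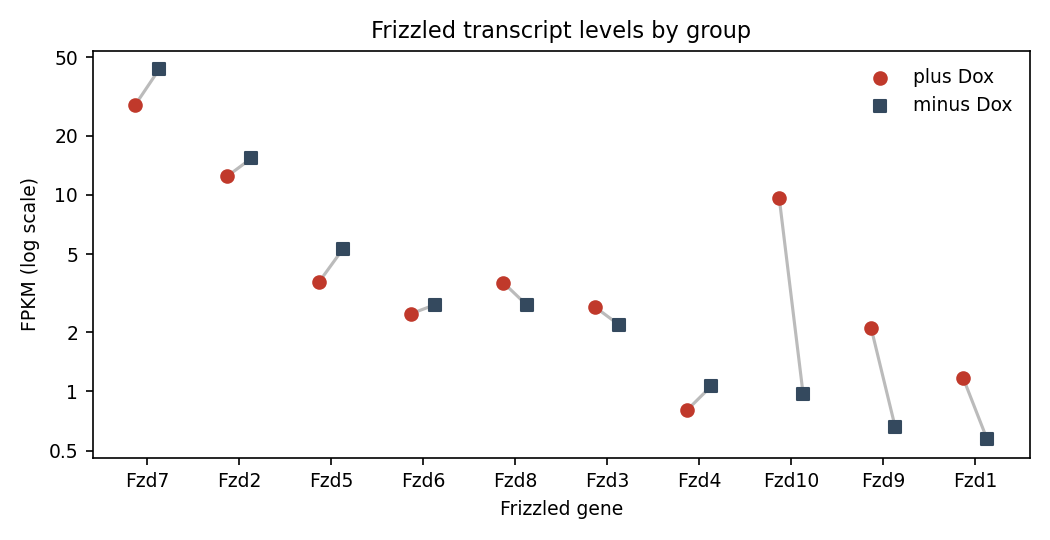
FPKM of each Frizzled gene (log axis) in plus Dox cells (circles, left of each pair) and minus Dox cells (squares, right), with genes ordered by their minus Dox level; each point is the authors' group value and has no error bar. The 3 genes with the lowest minus Dox levels, Fzd10, Fzd9 and Fzd1, stood higher in plus Dox cells, and the 3 with the highest, Fzd7, Fzd2 and Fzd5, stood lower.

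Fzd10 changed most. It is a receptor known from the primitive streak and the dorsal neural tube of the mouse embryo. Its level was 9.62 FPKM in plus Dox cells, against 0.965 FPKM in minus Dox cells. This was a 9.96-fold rise (log2 fold change 3.32, SE 0.12, 95% interval 3.07 to 3.56, q printed as 0 in the authors' deposited table, where the smallest other q is 7.72e-15). Of tested genes with both groups above 0, 0.399% had a larger change in either direction. The gene lies on chromosome 5, positions 129106719 to 129109968 of mm9, as row XLOC_024520. Fzd10 is also an older name of Fzd2 in RefSeq's list of synonyms, and the position is that of Fzd10 in the present sense, since Fzd2 has its own row on chromosome 11. By its pair of group values, Fzd10 was nearest to Grrp1 (9.76 FPKM in plus Dox and 1.03 FPKM in minus Dox cells), Tnfrsf19 (7.12 and 1.16 FPKM) and Tgfb1 (8.68 and 1.40 FPKM), at distances of 0.10, 0.51 and 0.56 on the log2 scale. This likeness rests on 2 group values for each gene.

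Fzd9, the closest relative of Fzd10, is a receptor known from the brain, where it marks the developing hippocampus. It stood at 2.09 FPKM in plus Dox cells and at 0.660 FPKM in minus Dox cells. The rise was 3.17-fold (log2 fold change 1.66, SE 0.16, interval 1.35 to 1.98, q printed as 0 in the authors' deposited table), smaller than that of Fzd10, and the intervals of both did not overlap. The genes nearest to it in level were C330046G13Rik, Tmem176a and Olfm2, at distances of 0.095 to 0.098 (log2), with 1.96 to 2.06 FPKM in plus Dox and 0.619 to 0.695 FPKM in minus Dox cells. Next came Fzd1 (chromosome 5, 4753842 to 4758216), from the subfamily of Fzd7. Fzd1 had 1.17 FPKM in plus Dox cells, against 0.570 FPKM in minus Dox cells, which made it the lowest member there. Its rise was 2.05-fold (log2 fold change 1.03, SE 0.14, interval 0.76 to 1.31, q = 8.71e-12 in the authors' deposited table).

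Fzd7 is the receptor most often tied to Wnt signalling in pluripotent stem cells. It was the highest member in both groups and fell to 28.7 FPKM in plus Dox cells, against 43.5 FPKM in minus Dox cells. The fall was 1.52-fold (log2 fold change -0.60, SE 0.07, interval -0.73 to -0.47, q printed as 0 in the authors' deposited table; chromosome 1, 59538991 to 59543791). In FPKM it was the largest change of any member, with a difference of -14.8 FPKM beside 8.65 FPKM for Fzd10. Fzd2, a partner of Fzd7 in mouse heart and palate development, was next to Fzd7 in both groups. It had 12.4 FPKM in plus Dox cells and 15.3 FPKM in minus Dox cells, a 1.23-fold fall (log2 fold change -0.30, SE 0.07, interval -0.43 to -0.17, q = 0.00012 in the authors' deposited table; chromosome 11, 102465745 to 102469372). Fzd1, Fzd2 and Fzd7 are the most alike in sequence of the family, and Fzd1 changed in the direction opposite to the others.

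Fzd5 and Fzd8, a pair that responds to beta-catenin-activating Wnts, also moved apart. Fzd5, which mouse embryos need for the blood vessels of the yolk sac, fell to 3.62 FPKM in plus Dox cells, against 5.33 FPKM in minus Dox cells (1.47-fold lower, log2 fold change -0.56, SE 0.09, interval -0.73 to -0.39, q = 3.59e-09 in the authors' deposited table). Fzd8 rose to 3.58 FPKM in plus Dox cells, against 2.74 FPKM in minus Dox cells (1.31-fold, log2 fold change 0.39, SE 0.10, interval 0.19 to 0.58, q = 0.00105 in the authors' deposited table; chromosome 18, 9212854 to 9216199). The pair thus stood at nearly the same level in plus Dox cells, and its sum was 7.19 FPKM there and 8.06 FPKM in minus Dox cells. Fzd4, the receptor of the vascular ligand Norrin, fell to 0.805 FPKM in plus Dox cells, against 1.06 FPKM in minus Dox cells (1.32-fold lower, log2 fold change -0.40, SE 0.14, interval -0.67 to -0.14, q = 0.0163 in the authors' deposited table). It was the only member under 1 FPKM in plus Dox cells, where 9 reached that level, against 7 in minus Dox cells.

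Fzd3 and Fzd6 are receptors that act in planar cell polarity, known for guiding axons and for the patterning of hair. Fzd3 had 2.68 FPKM in plus Dox and 2.18 FPKM in minus Dox cells, and was not called (log2 fold change 0.30, interval 0.02 to 0.58, p = 0.0338, q = 0.119 in the authors' deposited table). Fzd6 had 2.49 FPKM in plus Dox and 2.76 FPKM in minus Dox cells, and also stayed above the threshold (log2 fold change -0.15, interval -0.34 to 0.04, q = 0.314 in the authors' deposited table). The intervals allow a change of up to 1.49-fold higher for Fzd3 and hold values on both sides of 0 for Fzd6.

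**Figure D3:**
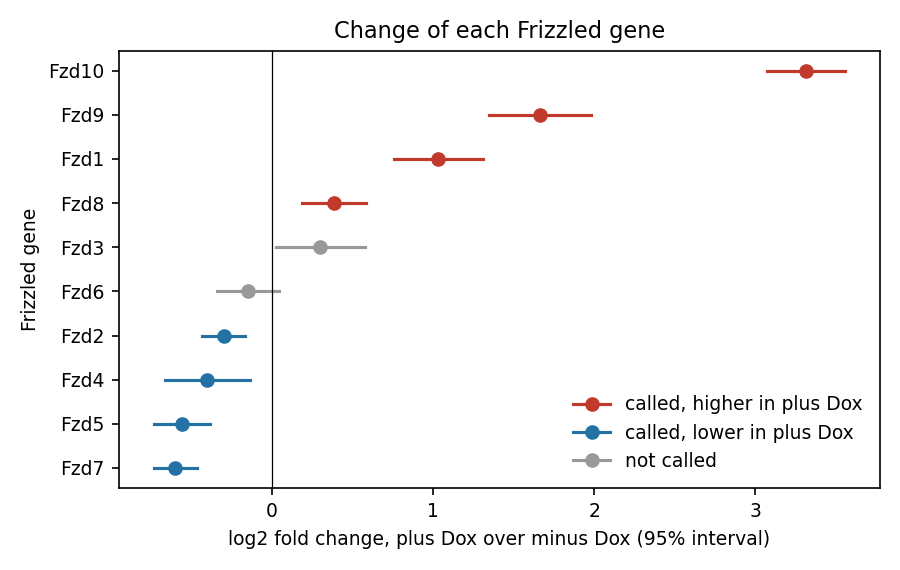
Log2 fold change of plus Dox over minus Dox for each Frizzled gene (points) with its 95% interval from the SE of the authors' test (bars), coloured by the call in the authors' deposited table. Fzd10, Fzd9 and Fzd1 lie at 1.03 or more with intervals that stay at 0.76 or above, and the 4 genes that fell lie between -0.60 and -0.30.

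The order of the levels changed with induction. In plus Dox cells it was Fzd7, Fzd2, Fzd10, Fzd5, Fzd8, Fzd3, Fzd6, Fzd9, Fzd1 and Fzd4, and in minus Dox cells Fzd7, Fzd2, Fzd5, Fzd6, Fzd8, Fzd3, Fzd4, Fzd10, Fzd9 and Fzd1. Fzd10 was thus 3rd in plus Dox cells and 8th in minus Dox cells. Neighbours in these orders cannot be tested against each other, because a level has no spread in the table. The closest were Fzd5 and Fzd8 in plus Dox cells, at 3.62 and 3.58 FPKM, and Fzd6 and Fzd8 in minus Dox cells, at 2.76 and 2.74 FPKM.

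The make-up of the receptor pool differed most in Fzd7 and Fzd10. The 10 genes summed to 67.2 FPKM in plus Dox cells and 75.1 FPKM in minus Dox cells, a ratio of 0.894. That ratio was 0.981 when each group was scaled to the same sum over tested genes. It was 1.22, on the other side of 1, with Fzd7 left out. Fzd7 made up 42.7% of the sum in plus Dox and 58.0% in minus Dox cells, Fzd2 18.5% and 20.4%, and Fzd10 14.3% and 1.28%. The level of Fzd7 was 2.98 times that of Fzd10 in plus Dox cells and 45.1 times in minus Dox cells. Fzd9 made up 3.11% and 0.878%, and each of the other members held between 0.759% and 7.09% in both groups. As the inverse of the summed squared shares, the pool held the equivalent of 4.04 equally expressed receptors in plus Dox cells and 2.59 in minus Dox cells.

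By subfamily, Fzd1, Fzd2 and Fzd7 together held 63.0% of the sum in plus Dox cells and 79.1% in minus Dox cells. Fzd9 and Fzd10 held 17.4% in plus Dox and 2.16% in minus Dox cells, a 7.20-fold higher sum of FPKM in plus Dox cells. The share of Fzd5 and Fzd8 was 10.7% in both groups, although Fzd5 fell and Fzd8 rose. Fzd3 and Fzd6 held 7.69% in plus Dox and 6.58% in minus Dox cells. These shares describe RNA, not receptors at the cell surface, and have no error.

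**Figure D4:**
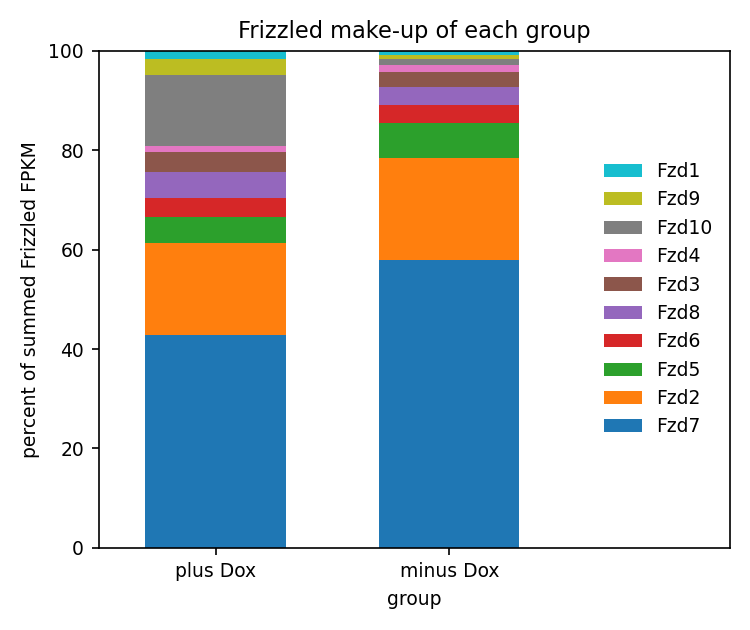
Each Frizzled gene as a percent of the summed FPKM of the 10 genes in plus Dox cells (left bar) and minus Dox cells (right bar); shares are from the authors' group values and have no error. The Fzd7 block at the bottom is 42.7% in plus Dox and 58.0% in minus Dox cells, and the grey Fzd10 block is 14.3% and 1.28%.

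The 3 genes that rose at least 2-fold all lie on chromosome 5, as the only members there. Fzd10 and Fzd9 are 6.61 Mb apart and Fzd1 is 124 Mb from Fzd10, and 10.1% of the 1148 tested genes of this chromosome rose in the authors' deposited table, against 10.5% of all tested genes. Fzd7 and Fzd5, which both fell, are 5.23 Mb apart on chromosome 1. Of the members not placed above, Fzd9 on chromosome 5 at 135724808 to 135727100, Fzd5 on chromosome 1 at 64777134 to 64784324, Fzd4 on chromosome 7 at 96552876 to 96558620, Fzd3 on chromosome 14 at 65819863 to 65881300 and Fzd6 on chromosome 15 at 38837879 to 38869732 stand in mm9. No member's locus overlapped that of another row. The nearest tested gene on each side of each member was taken from rows naming 1 gene with both groups above 0. Other tested rows were passed over, even where they lay nearer. This gave 20 neighbours, of which, by the authors' deposited table, 1 rose, 6 fell and 13 were not called. Of all tested genes, 10.5% rose and 12.7% fell, and no test was made on the neighbour counts. Among the 20, 7 lay within 5 kb of their member, a limit chosen with values in view. Of these 7, those beside Fzd4 and Fzd7 fell as the member did. Tmem135, 0.144 kb from Fzd4, had 4.83 FPKM in plus Dox and 5.72 FPKM in minus Dox cells (log2 fold change -0.24, q = 0.043 in the authors' deposited table). Gm17453, 1.53 kb from Fzd7, had 0.776 FPKM in plus Dox and 1.29 FPKM in minus Dox cells (log2 fold change -0.73, q = 4.27e-07 in the authors' deposited table). The other 5 had q above 0.05. They were 5930412G12Rik, which RefSeq lists as Fzd10os, at 0.151 kb from Fzd10 (log2 fold change 0.96), Gm17265 at 0.148 kb from Fzd6 (0.34), Baz1b at 2.81 kb from Fzd9 (-0.11), Fbxo16 at 4.24 kb from Fzd3 (-0.17) and Ccnyl1 at 4.92 kb from Fzd5 (0.11), in the authors' deposited table. Farther away, Ccny beside Fzd8 rose as it did, Prss23 beside Fzd4 and Gm11627 beside Fzd2 fell as they did, Piwil1 beside Fzd10 fell, and Cthrc1 beside the uncalled Fzd6 fell. Where transcripts of neighbours overlap, counting without strand cannot tell them apart.

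Promoter sequences from RefSeq (build GRCm38.p6) were at hand for 6 members, Fzd1, Fzd4, Fzd5, Fzd7, Fzd9 and Fzd10, and the 250 bases before the annotated start were searched on both strands for the GC box GGGCGG, the kind of site that Sp factors bind, with overlapping matches counted. The 3 of them that fell held 9 matches (Fzd5), 7 (Fzd4) and 6 (Fzd7), and the 3 of them that rose held 1 (Fzd10), 1 (Fzd9) and 0 (Fzd1). Base composition did not run in parallel, with 76.4% G and C in Fzd5, Fzd9 and Fzd10 alike, 72.8% in Fzd4, 65.2% in Fzd7 and 51.2% in Fzd1. A GC box was held by 32.7% of all 32851 promoters of this length, and by 58.4% of the 8500 of tested genes with 1 promoter entry. The windows of Fzd5, Fzd4 and Fzd7 are printed whole, to show where the matches lie, with GC boxes in capitals and bases 5′ to 3′ towards the start.
Fzd5 (chr1:64737751-64738000, minus strand): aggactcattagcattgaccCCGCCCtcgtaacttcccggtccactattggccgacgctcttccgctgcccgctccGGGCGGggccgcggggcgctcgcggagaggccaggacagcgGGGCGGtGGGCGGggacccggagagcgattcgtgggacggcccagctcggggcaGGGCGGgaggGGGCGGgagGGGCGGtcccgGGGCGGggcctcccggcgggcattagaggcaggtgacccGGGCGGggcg
Fzd4 (chr7:89404116-89404365, plus strand): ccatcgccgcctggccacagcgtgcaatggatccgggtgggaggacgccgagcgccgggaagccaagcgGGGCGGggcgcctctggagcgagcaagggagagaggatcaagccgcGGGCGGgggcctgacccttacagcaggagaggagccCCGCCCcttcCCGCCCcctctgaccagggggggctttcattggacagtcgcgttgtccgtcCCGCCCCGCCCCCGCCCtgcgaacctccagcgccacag
Fzd7 (chr1:59481897-59482146, plus strand): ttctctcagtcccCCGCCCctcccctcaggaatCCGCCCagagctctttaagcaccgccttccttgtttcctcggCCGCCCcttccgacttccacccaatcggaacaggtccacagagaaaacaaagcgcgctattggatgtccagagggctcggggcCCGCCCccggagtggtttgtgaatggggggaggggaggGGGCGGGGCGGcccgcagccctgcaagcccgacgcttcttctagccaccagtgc
Of the members that rose, the 30 bases around the single match are shown for comparison.
Fzd10 (chr5:128601022-128601051, plus strand): tcccctcccccgCCGCCCcccgactccgct
Fzd9 (chr5:135251113-135251142, minus strand): cgggacacacgtGGGCGGccgagagatggc
The windows depend on the annotated start. The GENCODE start lies upstream of RefSeq's by 262 bases in Fzd10, 183 in Fzd9, 11 in Fzd4 and 1 in Fzd5, and by -181 in Fzd1 and -277 in Fzd7, where the minus sign means downstream. The windows of Fzd10 and Fzd9 thus lie, wholly for Fzd10 and in part for Fzd9, within the GENCODE transcript. The measured rows of Fzd10 and Fzd9 span 3250 and 2293 bases, the lengths of those transcripts, and both single matches lie inside them. Sequence before the GENCODE start was not searched for Fzd10, and only in part for Fzd9. The match counts of Fzd10 and Fzd9 and those of the members that fell therefore do not cover like regions. At least 6 GC boxes, a limit set after the members' counts were seen, were held by 1.48% of the 1015 promoters of genes that rose and 4.07% of the 1227 of genes that fell, beside 1.61% of the 6258 of genes not called, among tested genes with 1 promoter entry. The median was 1 GC box in each class. The median content of G and C was 61.6% in those that rose and in those that fell, and 59.2% in those not called. At least 1 was held by 61.9% of those that rose, 67.0% of those that fell and 56.2% of those not called, and the mean number was 1.31, 1.64 and 1.15 in the same order. These are descriptions without a test, and a match is not a bound site. The Tcf/Lef letters CTTTGAA and CTTTGAT (in 7.48% of all promoters) and the T-box letters TCACACCT (in 1.12%), also searched on both strands, matched in none of the 6 windows.

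Other genes of the pathway changed around the receptors. In 8 lists of 95 different genes, 81 were tested, of which 26 rose and 17 fell in the authors' deposited table, or 53.1% called against 23.2% of all tested genes. Among Wnt ligands, 8 of 15 tested rose and 2 fell in the authors' deposited table, with a median log2 fold change of 1.21. Wnt3, the ligand that mouse embryos need for the primitive streak, had 5.14 FPKM in plus Dox and 0.555 FPKM in minus Dox cells, and Wnt6, Wnt5b, Wnt5a and Wnt8a rose 35.3-fold, 6.32-fold, 2.70-fold and 2.32-fold in the authors' deposited table. The summed level of the 19 ligands was 20.98 FPKM in plus Dox and 6.49 FPKM in minus Dox cells, beside the Frizzled ratio of 0.894.

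The list of co-receptors, which also holds the ligand gene Ndp, was mixed. Of its 9 tested genes, 2 rose and 3, with Ndp among them, fell in the authors' deposited table (median log2 fold change -0.0013). Ror2, a receptor of Wnt5a, rose to 4.39 FPKM in plus Dox cells, against 1.24 FPKM in minus Dox cells (3.54-fold in the authors' deposited table). Its relative Ror1 fell 1.65-fold and Lrp5 fell 1.25-fold in the authors' deposited table. Lrp6 (6.34 FPKM in plus Dox and 6.35 FPKM in minus Dox cells) and Ryk (25.8 FPKM in both groups) were not called. Ptk7 had status FAIL and was not tested (50.9 FPKM in plus Dox and 31.7 FPKM in minus Dox cells). Ndp, which encodes the Fzd4 ligand Norrin, fell as Fzd4 did, with 0.0357 FPKM in plus Dox and 0.188 FPKM in minus Dox cells (q = 3.91e-05 in the authors' deposited table).

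Genes that set how long Frizzled proteins stay at the surface were also mixed, with 4 of 11 tested higher and 3 lower in the authors' deposited table (median log2 fold change 0.03). Shisa2, whose product holds Frizzled proteins back inside the cell, rose 2.14-fold, and the R-spondin gene Rspo1 and its receptor gene Lgr4 fell 1.36-fold and 1.16-fold in the authors' deposited table. Their relatives, all under 1 FPKM in both groups, did not follow one direction. Lgr6 rose 5.46-fold, Lgr5 2.55-fold and Rspo3 1.73-fold, and the Shisa relative Shisa3 fell 2.19-fold in the authors' deposited table. The ubiquitin ligase genes Znrf3 (1.69 FPKM in plus Dox and 2.07 FPKM in minus Dox cells) and Rnf43 (0.466 and 0.448 FPKM), which remove Frizzled proteins from the surface, were not called. Lrp6, Ryk, Ptk7, Ndp, Lgr5, Lgr6, Rspo3, Shisa3, Znrf3 and Rnf43 fall outside the naming rule and were picked with their values in view. The same holds for the Dishevelled genes, Smo, Nanog, Utf1, Dnmt3b, Nes, Col1a1, Thy1, Dcn and Pdgfrb below. Of 7 tested genes in a list of secreted antagonists, 2 rose and 1 fell in the authors' deposited table (median log2 fold change 0.14). Frzb, a protein with a Frizzled-like cysteine-rich domain, rose 9.52-fold, and Sfrp5, of the same kind, 1.56-fold, while Cer1 fell 2.64-fold in the authors' deposited table. Cer1 is also among the endoderm markers below, and whether its mouse protein binds Wnts was not tested. Frzb stood at 3.74 FPKM in plus Dox and 0.392 FPKM in minus Dox cells.

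Of 8 tested further antagonists 5 rose and 2 fell in the authors' deposited table (median log2 fold change 1.20), with Dkk1 2.79-fold, Notum 3.25-fold and Apcdd1 2.54-fold higher and Kremen1 2.22-fold lower. Downstream of the receptors, 13 of 17 tested genes were not called, 2 rose and 2 fell in the authors' deposited table (median log2 fold change -0.12), and the 23.5% called was near the 23.2% of all tested genes. Axin2 (6.13-fold) and Nkd1 (2.32-fold), feedback inhibitors that respond to Wnt signalling, rose, and Tcf7l1 (1.36-fold) and Gsk3b (1.17-fold) fell in the authors' deposited table. The Dishevelled genes, whose products the KTXXXW motif binds, were among those not called, with 13.7 FPKM in plus Dox and 16.05 FPKM in minus Dox cells for Dvl1, 21.9 and 22.1 FPKM for Dvl2, and 4.33 and 4.71 FPKM for Dvl3. In the planar cell polarity list, 3 of 13 tested genes rose and 4 fell in the authors' deposited table (median log2 fold change -0.09). Prickle1 (1.52-fold), Vangl1 (1.45-fold) and Vangl2 (1.33-fold) rose, and Dact2 (1.44-fold), Celsr3 (1.33-fold) and Celsr1 (1.24-fold) fell in the authors' deposited table, with Fzd3 and Fzd6 not called. Smo, the Hedgehog pathway relative of the Frizzled family and the only gene of its list, had 25.6 FPKM in plus Dox and 23.5 FPKM in minus Dox cells and was not called.

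**Figure D5:**
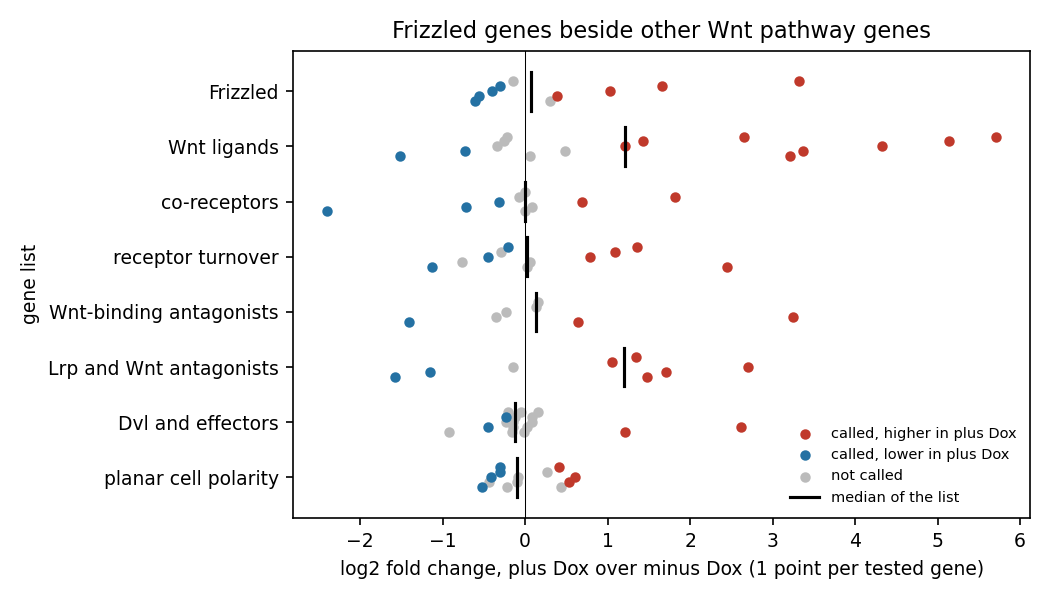
Log2 fold change of plus Dox over minus Dox for each tested gene (points, coloured by the call in the authors' deposited table) in the Frizzled family and 7 other lists of Wnt pathway genes, with the median of each list as a black bar. The medians of the ligands (1.21) and of the Lrp and Wnt antagonists (1.20) lie to the right of 0, and that of the Frizzled genes (0.07) close to it, with members on both sides.

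The labels fitted the induced gene, since Sp5 had 126 FPKM in plus Dox and 0.769 FPKM in minus Dox cells, although gene values do not separate transgene from endogenous Sp5. All 8 pluripotency markers were present at 21.7 FPKM or more in both groups, and 3 rose, 2 fell and 3 were not called. Pou5f1, not called, had 1058 FPKM in plus Dox and 999 FPKM in minus Dox cells, while Nanog rose 2.54-fold and Utf1 fell 2.64-fold in the authors' deposited table. All 8 primitive streak markers rose in the authors' deposited table, among them T, at 103 FPKM in plus Dox and 0.745 FPKM in minus Dox cells, and their summed level was 201 FPKM in plus Dox and 40.2 FPKM in minus Dox cells. The 3 tested epiblast markers fell in the authors' deposited table, and Dnmt3b was listed at 0 in minus Dox cells with status HIDATA and was not tested. Of 8 endoderm markers 4 fell and none rose (36.9 FPKM summed in plus Dox and 50.8 FPKM in minus Dox cells) in the authors' deposited table. Of 6 neural markers 4 had a row, of which 2 fell and 1 rose in the authors' deposited table (6.18 and 15.0 FPKM). Nes made up most of these neural sums, at 5.24 FPKM in plus Dox and 13.8 FPKM in minus Dox cells. The 10 fibroblast markers summed to 18.6 FPKM in plus Dox and 18.7 FPKM in minus Dox cells, with 1 of 9 tested higher and 3 lower in the authors' deposited table, none of them listed at 0. The 1 that rose was Col1a1, at 4.43 FPKM in plus Dox and 1.11 FPKM in minus Dox cells. Thy1, Dcn and Pdgfrb fell, so the near-equal sums join changes in opposite directions. The part of these cell types in the changes of the Frizzled genes was not tested.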

How the data were processed

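RNA captured with oligo-dT was sequenced from 6 libraries, 3 plus Dox and 3 minus Dox, with a kit protocol that mentions no strand marking, per the labels' protocols. The submitters' processing notes name mm9, Cufflinks 2.0.2, Cuffdiff, Picard, Bowtie and TopHat2 2.0.8, without the annotation, scaling or filters. The authors deposited 1 FPKM value per group, its log2 fold change, a test statistic (a score whose sign is opposite to the fold change), p-values and q-values. Their q equals a Benjamini-Hochberg adjustment over 18537 tested rows to within 1.79e-06. Depth is unknown, since the FPKM table holds no counts.

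Fold changes are plus Dox over minus Dox without a pseudocount. Starts were read as 0-based and are given from 1. SEs and intervals were derived from the deposited statistic. The call rule and the interval formula were run on changes simulated with those same SEs, which cannot test the SEs themselves. Coding sequences were aligned globally with Biopython 1.88 (match 2, mismatch -1, gap opening -10, extension -0.5, end gaps 0). Coding sequences replaced the planned protein comparison. No limma fit was made, because no value per library was at hand. Python 3.11.15, numpy 2.4.6, pandas 2.3.3, scipy 1.17.1 and matplotlib 3.10.9 were used. Members and lists were chosen with earlier results of these data known. All members are named. The genes nearest in level are given for the 2 called members with the largest change. Of each pathway list, called genes with at least 1 FPKM in the higher group are named, at most 6 by size of change, and other genes are marked in the text. Alternatives varied the call rule, pseudocount, scaling and members summed.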

Additional observations from a re-analysis of the deposited data

How the results depend on the processing

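The count of called Frizzled genes was 8 of 10 as deposited, 7 with q under 0.01 (without Fzd4, against 17.1% of tested genes), and 8 among genes with at least 1 FPKM in the higher group or among rows naming 1 gene. The filter of at least 1 FPKM kept Fzd10, Fzd9, Fzd1 and Fzd4 only through the group where each was higher. The count was 5 with a Bonferroni adjustment, by which Fzd10, Fzd9, Fzd1, Fzd7 and Fzd5 were called, and 4 with a minimum of 1.5-fold, which kept Fzd10, Fzd9, Fzd1 and Fzd7. The backgrounds under these rules were 8.98% and 11.2%. The pathway count was 43 of 81 tested genes as deposited, and again 43 among rows naming 1 gene. It was 26 under Bonferroni (background 8.98%), 34 with q under 0.01 (17.1%) and 32 with a minimum of 1.5-fold (11.2%). Among genes with at least 1 FPKM in the higher group it was 29 (background 29.4%). That filter removes some of the 81 genes, so 29 cannot be set against 43. Scaling each group to the same sum over tested genes moved every log2 fold change by 0.13, and the log2 fold changes of all 8 called members kept their sign under this, under centring on the median and under both pseudocounts. With a pseudocount of 1 FPKM the low members moved most, Fzd10 to 2.43, Fzd9 to 0.90 and Fzd1 to 0.46 on the log2 scale. The ratio of the summed level, 0.894, was 0.922 after centring, 0.981 after sum scaling, 1.22 (the opposite direction) without Fzd7 and 0.776 without Fzd10, an alternative added after seeing the data. Without Fzd10 the plus Dox share of Fzd7 was 49.9% and that of Fzd2 21.6%; leaving a gene out of the sum raises every other share by construction. Under a pseudocount of 0.1 FPKM, the shares of Fzd7, Fzd2 and Fzd10, the only ones recomputed, moved by no more than 10% of their value. No paired analysis was possible because the table holds group values only, and for the same reason no library could be left out. FPKM without counts gives no floor, so the number of fragments behind members near 1 FPKM is unknown. The SE of the authors' test was 0.14 for Fzd1 and Fzd4 and 0.16 for Fzd9, beside 0.07 for Fzd7 and Fzd2. How much of it is counting error cannot be read from the deposited values.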
